A study of Homo sapiens with 6 samples.

Results

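The p53 target genes described here are 35 genes tied to the tumour suppressor p53 as its targets or partners in cell cycle arrest, repair, metabolism and feedback. They are taken by symbol, by a rule that uses no measured value, but the list was chosen with earlier results of these data known. A member was taken as measured where the platform annotation gave a transcript cluster its symbol alone, and 32 of the 35 members were found this way among 18417 genes in all, each through 1 cluster. The cluster of TNFRSF10C carries a further gene's symbol, and BTG2 and FDXR were not analysed here. AGS, an established human gastric carcinoma line, retains wild-type p53. Treated cells received 20 µM celecoxib, an inhibitor of the prostaglandin-producing enzyme cyclooxygenase-2, for 24 h, and the other cells are labelled as untreated controls. Each group had 3 arrays of the HuGene-1_0-st design, which reads each gene with probes along its transcript. Celecoxib came from a stock in DMSO, and the sources used here do not state whether the controls were given that solvent. The labels call the arrays biological replicates but also mention pooling after the RNA quality check, so the p-values cover the spread between these 6 arrays alone, which may be technical.

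p53 is a transcription factor that binds paired copies of a short palindromic half-site near its target genes after DNA damage and other stresses. Its targets halt the cell cycle through the cyclin-dependent kinase inhibitor p21 (CDKN1A), repair DNA and supply nucleotides, shift redox metabolism and nutrient sensing, and limit p53 itself, chiefly through the ubiquitin ligase MDM2. Several of these genes also answer to other factors, among them FOXO proteins for SESN3 and CCNG2 and NF-kappaB for GADD45B.

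The half-site was looked up in RefSeq promoter windows of GRCh38.p14, which run from 250 bases before to 50 after each annotated gene start, because p53 acts on its targets by binding such sites, many of which are known to lie outside these windows. The p53 half-site decamer is its own reverse complement, so 1 scan covers both strands. A full site was taken as 2 decamers separated by 0 to 13 bases with at most 2 mismatches in all. The table held 42 windows for 28 of the measured members and none for GADD45A, PHLDA3, RRM2B and TP53INP1. An exact decamer lay in 5 of the 42 windows (11.9%) and in 6.63% of all 35116 windows, and a full site lay in 7 (16.7%) and in 7.82%. A full site without mismatch lay in 10 windows of the whole table, and 1 of them belonged to DDB2. Starts of 1 gene can lie close together and share a site. The matched sites are shown 5′ to 3′ on the strand of the gene, with the decamers in capitals, for every member with a match. The full sites of MDM2, AEN, CCNG1 and the outer SESN1 start have 2 mismatches each. Those of PLK2, RPS27L and the inner SESN1 start are single exact half-sites. They lie at chr11:47214977-47215001 (DDB2, plus strand, after the start), chr12:68808903-68808962 (MDM2, plus, the downstream start inside the gene), chr15:88621286-88621339 (AEN, plus), chr5:163437509-163437570 (CCNG1, plus), chr6:109009008-109009057 and chr6:109095038-109095096 (SESN1, minus, 2 starts), chr5:58460189-58460238 (PLK2, minus) and chr15:63157507-63157556 (RPS27L, minus).
DDB2: ttGAACAAGCCCtGGGCATGTTTgg
MDM2: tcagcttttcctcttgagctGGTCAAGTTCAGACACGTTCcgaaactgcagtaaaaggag
AEN: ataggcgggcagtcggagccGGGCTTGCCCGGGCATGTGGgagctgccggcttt
CCNG1: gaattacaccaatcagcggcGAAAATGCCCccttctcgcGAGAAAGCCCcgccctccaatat
SESN1, inner start: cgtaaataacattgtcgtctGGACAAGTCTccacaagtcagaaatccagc
SESN1, outer start: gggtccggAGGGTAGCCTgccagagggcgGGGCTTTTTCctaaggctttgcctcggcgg
PLK2: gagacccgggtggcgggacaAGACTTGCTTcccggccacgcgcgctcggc
RPS27L: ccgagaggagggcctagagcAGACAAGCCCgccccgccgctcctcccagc

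The first question was whether celecoxib moved the p53 targets. None of the 32 measured members passed a limma adjusted p of 0.05 over all genes, where 26 of 18417 genes (0.141%) did, and the smallest adjusted p among the members was 0.251. The largest differences were in SESN1 and RRM2B, each 0.26 higher with celecoxib on the log2 scale, and in PLK2, 0.24 lower. An unadjusted p under 0.05 was reached by 2 members that stood higher (RRM2B and SESN1) and 3 that stood lower (PLK2, EPHA2 and DDB2), or 5 of 32, against 6.87% of all genes higher and 4.44% lower. The groups did not overlap in 6 members with higher values and in 4 with lower values, where 11.1% and 7.95% of all genes did so. Of the members 20 had a positive and 12 a negative difference, with a median of 0.04, against a median of -0.01 over all genes, of which 47.9% were positive. No member differed by 0.5 or more on the log2 scale, as 0.635% of all genes did, and 2 differed by at least 0.25, a size reached by 8.52% of all genes.

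The arrays did set bounds, on the difference between these arrays alone. The 95% interval of the difference lay within 1.5-fold in either direction for each of the 32 members and within 1.3-fold for 24 of them. The bound furthest from 0 was that of XPO1, at 1.43-fold lower. These intervals come from the fit gene by gene and are not adjusted for the number of genes. Like the p-values they cover only the spread between these arrays, which may be technical. The intervals given for single genes below have the same limit. Fewer cells with a transcript and less of it per cell cannot be told apart in such bulk RNA.

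**Figure D1:**
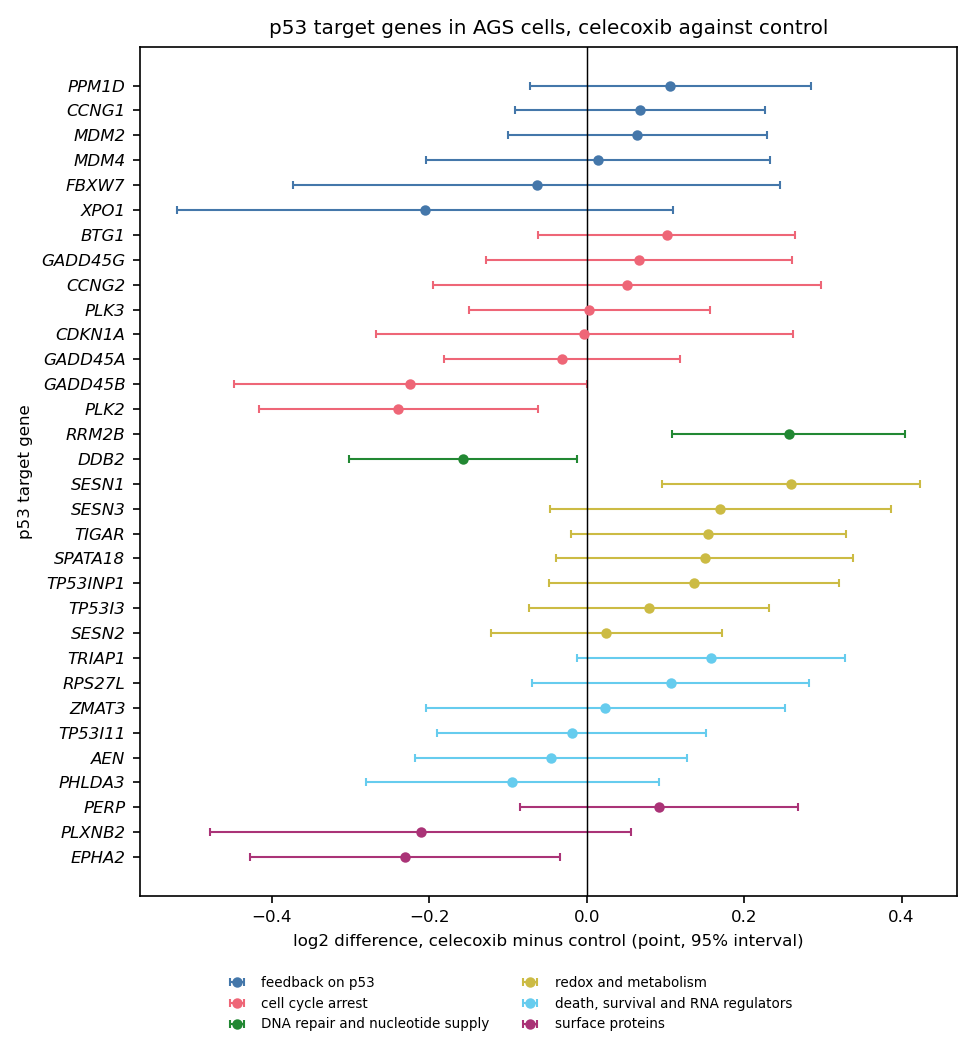
Log2 difference, celecoxib minus control, of the 32 measured p53 target genes (points) with its 95% interval (bars), from the fit over all genes with 3 arrays per group, coloured by role. The intervals of RRM2B and SESN1 lie above 0 and those of PLK2, EPHA2 and DDB2 below it, and all 7 measured genes of redox and metabolism have positive points.

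Arrest genes are the textbook output of p53. CDKN1A, which encodes p21, read 8.88, 9.29 and 9.18 in the celecoxib arrays and 9.10, 9.25 and 9.01 in the controls (RMA log2 values, as are all levels here). The groups overlapped fully, with celecoxib 1 the lowest and celecoxib 2 the highest of the 6 arrays. The means were 9.12 ± 0.21 with celecoxib and 9.12 ± 0.12 in the controls (SD, n = 3 each). For the spread between these arrays, the 95% interval of the difference, from -0.27 to 0.26, allows at most 1.20-fold in either direction (limma adjusted p = 0.995). CDKN1A stood at 0.11 ± 0.09 (SE, limma adjusted p = 0.738) without celecoxib 1 and at 0.25 ± 0.10 (adjusted p = 0.461) with the small nuclear and nucleolar RNA content of each array as a covariate. That content was higher in every celecoxib array than in any control, so the covariate cannot be told apart from treatment.

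PLK2, a polo-like kinase induced by stress, read 9.21, 9.09 and 9.04 with celecoxib and 9.40, 9.27 and 9.40 in the controls. Each celecoxib array lay below each control, and the difference was -0.24 ± 0.08 (SE, n = 3 per group, limma adjusted p = 0.34). Its relative PLK3 read 7.05, 7.05 and 7.15 against 7.07, 7.09 and 7.07 in the controls, a difference of 0.003 ± 0.067. PLK2 has an exact half-site in the window shown above, and no match was found for PLK3.

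The GADD45 genes encode small stress proteins that bind PCNA and the kinase MAP3K4. GADD45B read 7.28, 6.98 and 7.20 with celecoxib against 7.31, 7.32 and 7.49 in the controls, without overlap, with a difference of -0.22 ± 0.10 (limma adjusted p = 0.441) that was -0.14 without celecoxib 2. GADD45A read 7.41, 7.35 and 7.40 with celecoxib against 7.38, 7.43 and 7.44 in the controls and differed by -0.03 ± 0.07. GADD45G stood at 0.07 ± 0.08, and its groups overlapped.

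BTG1, an antiproliferative protein of the BTG/TOB family, read 8.99, 8.85 and 8.86 with celecoxib against 8.77, 8.78 and 8.84 in the controls. Its lowest celecoxib value lay just above its highest control value, and the difference was 0.10 ± 0.07 (SE, n = 3 per group, limma adjusted p = 0.594). Without celecoxib 1 it was 0.057. CCNG2, an unconventional cyclin linked to arrest, stood at 0.05 ± 0.11. Of the 8 measured arrest genes, 4 were higher and 4 lower, with a median of 0.0001.

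**Figure D2:**
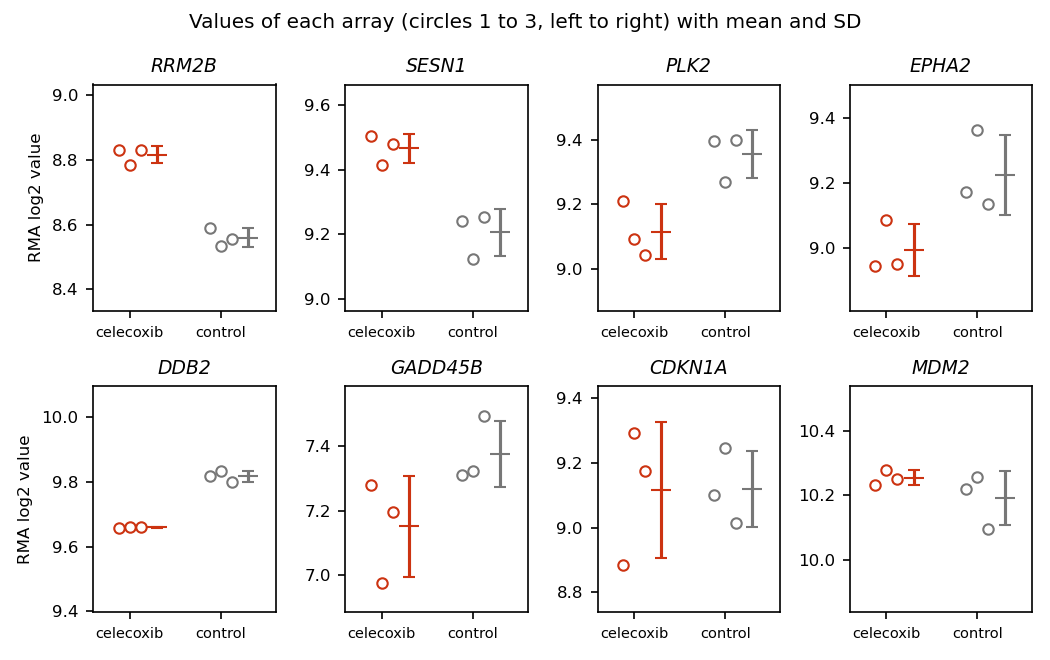
RMA log2 values of 8 p53 target genes, with celecoxib arrays at the left and controls at the right of each panel. Circles are arrays 1 to 3 from left to right, bars the mean and SD (n = 3), and every panel spans 0.7 log2 units. RRM2B and SESN1 lie higher with celecoxib without overlap, PLK2, EPHA2, DDB2 and GADD45B lie lower without overlap, and CDKN1A and MDM2 overlap.

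Of the genes that feed back on p53, none had groups that stood apart. MDM2, the ubiquitin ligase that degrades p53, read 10.23, 10.28 and 10.25 with celecoxib and 10.22, 10.26 and 10.10 in the controls. Only control 3 stood apart, below the other 5, and the difference was 0.06 ± 0.07 (SE, n = 3 per group, limma adjusted p = 0.75), with an interval that allows up to 1.17-fold higher. Its partner MDM4 stood at 0.01 ± 0.10.

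PPM1D, the phosphatase WIP1 that reverses p53 phosphorylation, read 8.32, 8.45 and 8.36 with celecoxib against 8.31, 8.34 and 8.17 in the controls, a difference of 0.11 ± 0.08 (limma adjusted p = 0.612) that was 0.053 without control 3 and 0.068 without celecoxib 2. CCNG1, cyclin G1, which brings phosphatase 2A to MDM2, read 11.65, 11.52 and 11.57 with celecoxib against 11.54, 11.47 and 11.53 in the controls. Its difference was 0.07 ± 0.07, and the groups overlapped. XPO1, the exportin that carries p53 out of the nucleus among many cargoes, read 9.97, 10.45 and 10.25 with celecoxib against 10.45, 10.61 and 10.23 in the controls. It had the widest spread of the members, the groups overlapped, and the difference was -0.21 ± 0.14 (limma adjusted p = 0.579). It was -0.080 without celecoxib 1, -0.12 without control 2 and -0.32 without celecoxib 2. FBXW7, the substrate receptor of a ubiquitin ligase for cyclin E and MYC, stood at -0.06 ± 0.13. The 6 feedback genes had 4 positive and 2 negative differences.

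The members for DNA repair and nucleotide supply went opposite ways. RRM2B, the p53-inducible subunit of ribonucleotide reductase, read 8.83, 8.79 and 8.83 with celecoxib and 8.59, 8.53 and 8.55 in the controls. All celecoxib arrays lay above all controls, with means of 8.82 ± 0.03 and 8.56 ± 0.03 (SD, n = 3 each), a difference of 0.26 ± 0.06 or 1.19-fold (SE, limma adjusted p = 0.251). DDB2, which recognises ultraviolet lesions in chromatin, read 9.66 in each of the 3 celecoxib arrays and 9.82, 9.84 and 9.80 in the controls. It had the smallest spread within groups of the members (SD 0.0129) and a difference of -0.16 ± 0.06 or 1.12-fold lower (limma adjusted p = 0.413). DDB2 is the member whose window holds the full site without mismatch.

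All 7 measured genes of redox and metabolism had positive differences, from 0.02 to 0.26 with a median of 0.15, where 47.9% of all genes were positive. The median deviation of these 7 genes from their own mean over 6 arrays was 0.07, 0.08 and 0.07 in the celecoxib arrays and -0.04, -0.09 and -0.06 in the controls. In 3 of them, SESN1, TIGAR and TP53I3, the groups did not overlap, as in 11.1% of all genes on the higher side, and 0 of the 7 passed the adjusted threshold. The groups overlapped in the other 4, of which SESN3 and SPATA18 lay among the dimmest 20% of genes. These genes were listed with earlier results of these data known.

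SESN1, sestrin 1, which restrains mTORC1 when leucine is short, read 9.50, 9.42 and 9.48 with celecoxib and 9.24, 9.12 and 9.25 in the controls. The difference was 0.26 ± 0.07 or 1.20-fold (SE, n = 3 per group, limma adjusted p = 0.28). SESN3 read 5.02, 5.34 and 5.24 with celecoxib against 5.06, 5.08 and 4.95 in the controls, near the low end of the array's range, with overlap through celecoxib 1. Its difference was 0.17 ± 0.09, and 0.26 ± 0.08 without celecoxib 1 (limma adjusted p = 0.391), and 0.10 without celecoxib 2. SESN2, the sestrin induced by ATF4 and NRF2 as well, differed by 0.02 ± 0.06, with an interval that allows at most 1.13-fold higher.

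TIGAR, a phosphatase that lowers fructose-2,6-bisphosphate, read 8.28, 8.20 and 8.09 with celecoxib against 8.07, 7.97 and 8.06 in the controls. Its lowest celecoxib value lay just above its highest control value, and the difference was 0.15 ± 0.08 (SE, n = 3 per group, limma adjusted p = 0.479). Over 18 alternative fits that difference ranged from 0.043 to 0.20. TP53INP1, a nuclear and autophagy-linked stress protein, read 8.53, 8.77 and 8.65 with celecoxib against 8.51, 8.55 and 8.49 in the controls. It differed by 0.14 ± 0.08, with overlap through celecoxib 1 and control 2, and by 0.20 ± 0.07 without celecoxib 1 (limma adjusted p = 0.472), and by 0.075 without celecoxib 2. SPATA18, a mitochondrial quality-control protein, read 5.54, 5.42 and 5.66 with celecoxib against 5.45, 5.32 and 5.40 in the controls, a difference of 0.15 ± 0.08 with overlap, and 0.092 without celecoxib 3. TP53I3, a quinone oxidoreductase, differed by 0.08 ± 0.07.

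Among regulators of death, survival and RNA, TRIAP1, a small mitochondrial protein that restrains apoptosis, read 8.98, 9.06 and 8.90 with celecoxib against 8.79, 8.89 and 8.79 in the controls. The groups did not overlap by a narrow margin, and the difference was 0.16 ± 0.07 (SE, n = 3 per group, limma adjusted p = 0.459). RPS27L, a ribosomal protein paralogue, differed by 0.11 ± 0.08 (0.060 without celecoxib 1) and the RNA-binding ZMAT3 by 0.02 ± 0.10. The nuclease AEN stood at -0.05 ± 0.08, TP53I11 at -0.02 ± 0.07 and PHLDA3, which blocks Akt at the membrane, at -0.09 ± 0.08. For AEN and RPS27L, which have sites in the windows shown, the groups overlapped.

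Of the surface proteins, EPHA2, an ephrin receptor kinase, read 8.94, 9.08 and 8.95 with celecoxib and 9.17, 9.36 and 9.13 in the controls. Every celecoxib array lay below every control, and the difference was -0.23 ± 0.09 (SE, n = 3 per group, limma adjusted p = 0.382). The semaphorin receptor PLXNB2 read 9.93, 10.32 and 10.19 with celecoxib against 10.34, 10.50 and 10.24 in the controls, a difference of -0.21 ± 0.12 with overlap, and -0.10 ± 0.10 without celecoxib 1 (limma adjusted p = 0.79) and -0.14 without control 2. PERP, a desmosomal protein also linked to apoptosis, stood at 0.09 ± 0.08.

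The members also varied between arrays of 1 group. In 12 of the 32, celecoxib 1 was the lowest of the celecoxib arrays and control 3 the lowest of the controls, which held for 19.6% of all genes. These were MDM2, PPM1D, XPO1, FBXW7, CDKN1A, CCNG2, DDB2, SESN3, TP53INP1, ZMAT3, PLXNB2 and EPHA2. The median level of 195 small nuclear and nucleolar RNA genes was 7.49, 7.21 and 7.17 in the celecoxib arrays and 7.11, 6.98 and 7.13 in the controls. It was highest in celecoxib 1 and higher in every celecoxib array than in any control, so it cannot be told apart from treatment. The part of this level in the members' values was not tested beyond the covariate. With this level as a covariate 6 members stood higher and 2 lower past an unadjusted p of 0.05, and 0 passed the adjusted threshold. Of all 18417 genes, 1851 reached that unadjusted p in either direction. The higher members were CCNG2, CDKN1A, RRM2B, SESN3, TP53INP1 and ZMAT3, and the lower ones GADD45B and PLK2. SESN1, EPHA2 and DDB2 were no longer among them. The sources used here state neither slide nor scan date.

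**Figure D3:**
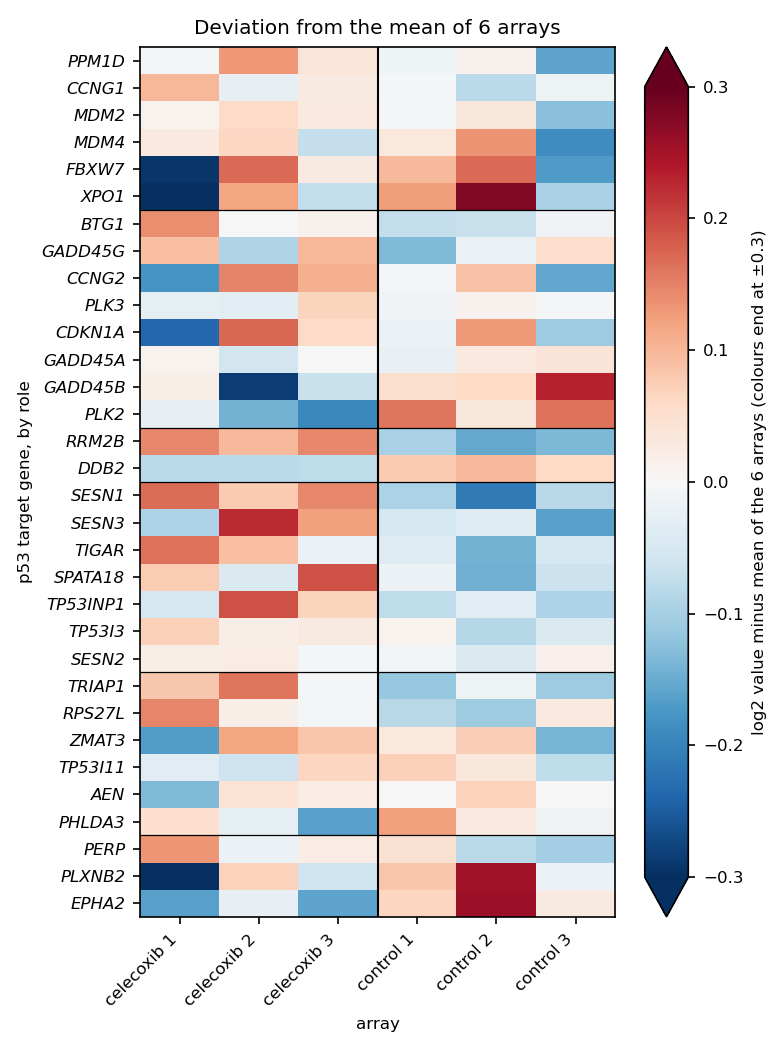
Log2 value of each measured p53 target gene minus its own mean over the 6 arrays, with celecoxib arrays at the left and controls at the right of the line, and genes grouped by role. Celecoxib 1 is low in FBXW7, XPO1, CDKN1A, CCNG2, ZMAT3 and PLXNB2, while SESN1 and RRM2B are high and PLK2, DDB2 and EPHA2 low in all 3 celecoxib arrays.

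Other genes of the pathway were read from lists chosen with earlier results of these data known. None of their genes passed the adjusted threshold in the fit reported here. Among apoptosis targets of p53, 5 of 11 were higher and 6 lower, with a median of -0.04. The pro-apoptotic BAX and BBC3 differed by -0.09 ± 0.07 and -0.11 ± 0.08 (BBC3 -0.06 without celecoxib 2), the death receptor FAS by 0.22 ± 0.11 (0.11 without celecoxib 1) and TP53AIP1 by -0.33 ± 0.10 (limma adjusted p = 0.334). TP53AIP1 was dim, at 4.98 with celecoxib and 5.31 in the controls.

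Among further targets, a list that again holds FAS, 29 of 32 were measured, 19 higher and 10 lower, with a median of 0.10. The stress cytokine GDF15 read 11.48, 11.35 and 11.35 with celecoxib against 10.94, 10.90 and 11.04 in the controls, a larger difference than that of any member, at 0.44 ± 0.07 (limma adjusted p = 0.0907). With dim genes left out at the median signal, an intensity trend (robust or not) or array weights, GDF15 passed, at an adjusted p of 0.0426, 0.0326, 0.0342 and 0.0157. The matrix protein THBS1 and SFN, the G2 checkpoint protein 14-3-3 sigma, lay lower, by -0.52 ± 0.12 and -0.32 ± 0.10, and THBS1 passed with array weights (limma adjusted p = 0.0424). THBS1 was -0.39 without celecoxib 1 and -0.24 with the small RNA covariate, and SFN was -0.23 and -0.14.

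Of 24 listed regulators of p53, 22 were measured, 11 higher and 11 lower, with a median of -0.01. The gene of p53 itself was not analysed here. The damage kinase ATM differed by 0.29 ± 0.08 (limma adjusted p = 0.285), the ubiquitin ligase RCHY1 by 0.32 ± 0.12 and the acetyltransferase KAT5 by -0.16 ± 0.06. The groups overlapped in 19 of the 22, and these were the 2 higher and 1 lower that did not, against 11.1% and 7.95% of all genes. RCHY1 stood at 0.19 without celecoxib 1 and at 0.087 with the small RNA covariate.

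Genes that p53 lowers through p21 and the DREAM repressor are mostly mitotic. Of 24 measured, 23 had negative differences, with a median of -0.14. Of all 18417 genes 9594 had negative differences, with a median of -0.01. The groups did not overlap in 8 of the 24, all lower, against 7.95% of all genes on that side. An unadjusted p under 0.05 was reached by 9 that stood lower, against 4.44% of all genes, and by 0 that stood higher. The median deviation of these genes from their own mean over all arrays was 0.030, -0.088 and -0.147 in the celecoxib arrays. In the controls it was 0.085, 0.032 and 0.102. By this median celecoxib 1 was level with control 2, and only celecoxib 2 and celecoxib 3 lay clearly below every control. KIF20A, a kinesin of late mitosis, read 9.62, 9.47 and 9.52 with celecoxib against 9.94, 9.81 and 9.98 in the controls, a difference of -0.37 ± 0.08 (SE, n = 3 per group, limma adjusted p = 0.167). BUB1B and KIF23 differed by -0.30 ± 0.07 and -0.33 ± 0.09. With array weights KIF20A, KIF23 and BUB1B passed, at a limma adjusted p of 0.0272, 0.0424 and 0.04996. The difference of CDKN1A, the gene of p21, was -0.003 ± 0.115.

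**Figure D4:**
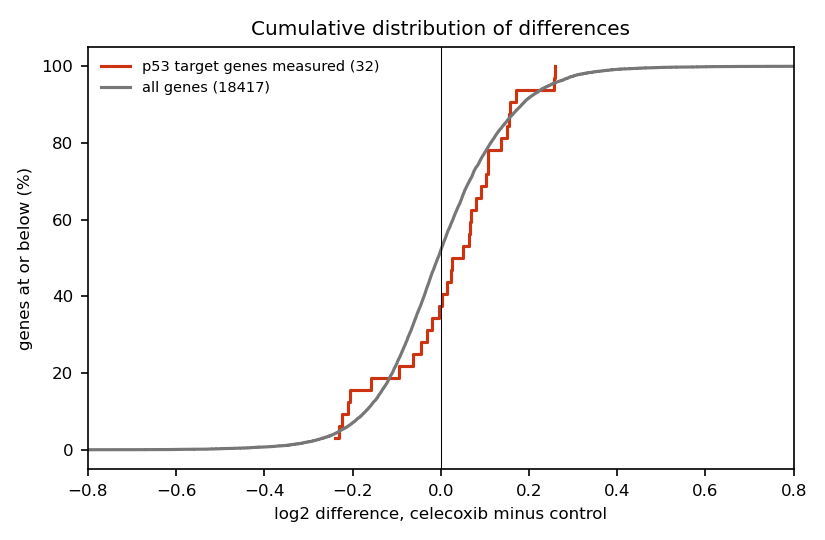
Cumulative share of genes (%) at or below each log2 difference, celecoxib minus control, for the 32 measured p53 target genes and for all 18417 genes. The median is 0.04 for the members and -0.01 for all genes, and the members end at -0.24 and 0.26, inside the range of all genes.

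The label of the cells was read against markers. Of 10 epithelial markers 9 lay above the median of all clusters (6.79), as did 1 of 6 fibroblast, 2 of 5 measured leukocyte and 0 of 4 endothelial markers. Among the epithelial genes MUC13 differed by 0.53 ± 0.08, KRT18 by -0.21 ± 0.07 and KRT8 by -0.16 ± 0.08. The fibroblast markers LUM, COL1A1 and PDGFRB differed by 0.24, -0.12 and -0.13, the leukocyte markers CD14, LYZ and PTPRC by -0.16, 0.06 and 0.06, and the endothelial markers KDR, CDH5 and PECAM1 by -0.07, 0.04 and -0.03, none past the adjusted threshold in the fit reported here. CD14 was -0.10 without celecoxib 1, -0.25 without celecoxib 3, -0.26 without control 2 and -0.097 without control 3, and PDGFRB was -0.065 without control 3. MUC13 passed in 5 alternatives (limma adjusted p from 0.0101 to 0.0354). LYZ, also a product of gastric epithelium, and CD68 were the 2 leukocyte markers above the median. CD68 was at 8.14 with celecoxib and 8.13 in the controls. The defining leukocyte marker PTPRC was at 4.01 with celecoxib and 3.95 in the controls.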

How the data were processed

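RNA of AGS cells was read on 6 HuGene-1_0-st arrays. The deposited table holds log2 values, made by the authors with RMA in Affymetrix Expression Console 1.1, per the submitters' processing notes. The sources used here do not state the probe-level settings. Array medians lay between 6.75 and 6.82, and the number of arrays limits the precision. Of 33297 transcript clusters, 19460 had 1 gene symbol in the platform annotation. The cluster with the highest mean stood for each of 18417 genes.

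Groups came from the labels. The 3 celecoxib arrays were compared with 3 controls with limma 3.58.1 (lmFit, eBayes; R 4.3.3), two-sided, with Benjamini-Hochberg adjustment over all genes at 0.05. The fit was tested on simulated data. There it recovered 4.8% of changes of 0.25 on the log2 scale and 74.3% of changes of 0.5, with a false share of 6.92%. Members, lists and the rule for named genes (the 14 smallest p, CDKN1A, MDM2, PPM1D, PLK2, TIGAR, BTG2, GADD45A and CCNG1 with every array; 3 genes of each further list, BAX, BBC3 and p53's own gene) were chosen with earlier results of these data known. Replicate numbers are shared between groups without a stated pairing. Alternatives covered clusters, dim genes, normalization, variance prior, weights, block, a covariate and each array left out. Promoter windows are from RefSeq (GRCh38.p14). Figures used matplotlib 3.10.9.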

Additional observations from a re-analysis of the deposited data

How the results depend on the processing

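No member passed an adjusted p of 0.05 in any of the 18 alternatives, and the median difference stayed between 0.0089 and 0.074. RRM2B (0.23 to 0.29), SESN1 (0.20 to 0.30), PLK2 (-0.36 to -0.20), EPHA2 and DDB2 kept their sign in all 18. Of the 32 members 19 kept it in every alternative run for them, which was 16 for SESN3 and SPATA18, dim genes that both filters left out. At an unadjusted p under 0.05, members that stood higher numbered 4 with arrays centred on their median, 5 with array weights, 6 with the small RNA covariate, and 2 to 4 with 1 array left out (4 without celecoxib 1 or celecoxib 3). Members that stood lower numbered 1 with centring, 5 with weights, and 0 (without celecoxib 3) to 4 with 1 array left out, with 1 without control 1 or control 2. The number of all 18417 genes at that cut, both directions together, also shifted. It was 2083 in the fit reported here, 2299 with centring, 3330 with weights and 1851 with the covariate. With 1 array left out it ran from 1293 (control 2) to 2353 (celecoxib 2). The replicate number as a block gave 2 members higher and 3 lower, with GADD45B in place of DDB2, and 0 of all genes called (2448 at an unadjusted p under 0.05). Deviations of same-numbered arrays correlated at -0.02, 0.49 and 0.01 across genes, and those of different numbers at -0.49 to 0.41. Deviations within a group of 3 depend on each other, so these values cannot settle whether the numbers pair the arrays. All genes called by limma also numbered 0 with all clusters tested together (1569 genes at an unadjusted p under 0.05), 76 above the median signal, 59 without the dimmest 20%, 44 with quantile normalization again, 42 with cyclic loess, 69 with an intensity trend, with or without a robust prior, 177 with weights, 1 with the covariate, and 0 to 5 with 1 array left out.

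The sign turned in 13 members and in FAS, CDH5 and PECAM1, none past the threshold on either side; the cause was not tested. Centring gave CDKN1A 0.034, GADD45A 0.0050, TP53I11 0.017 and PECAM1 0.0060. Quantile normalization gave MDM4 -0.0094 and ZMAT3 -0.0093, and cyclic loess gave them -0.019 and -0.012. Weights gave CDKN1A 0.053, MDM4 -0.040 and PECAM1 0.042. The covariate gave AEN 0.072, CCNG1 -0.0085, CDKN1A 0.255, FAS -0.012, FBXW7 0.227, PECAM1 6.3e-05, PLXNB2 0.045, RPS27L -0.0042, TP53I11 0.021 and XPO1 0.089. The mean of clusters gave PECAM1 0.063. With 1 array left out, AEN ranged from -0.079 to 0.0095, CCNG2 from -0.015 to 0.153, CDH5 from -0.0064 to 0.068, CDKN1A from -0.090 to 0.113, FBXW7 from -0.165 to 0.067, MDM4 from -0.076 to 0.085, PECAM1 from -0.066 to 0.018, PLK3 from -0.029 to 0.021, TP53I11 from -0.062 to 0.011 and ZMAT3 from -0.041 to 0.113.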

Other observations

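The cluster annotated with both TNFRSF10C, a decoy receptor for the death ligand TRAIL, and a further symbol was dim, at 5.37, 5.45 and 4.99 in the celecoxib arrays and 5.19, 5.26 and 5.55 in the controls. The groups overlapped, the difference was -0.07 ± 0.15 (SE, n = 3 per group), and limma gave an adjusted p of 0.913 with all 33297 clusters tested together. The value cannot be assigned to either gene.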
